A study of Mus musculus with 2 samples.

Results

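The 150 most abundant autosomal long noncoding RNA (lncRNA) genes were followed through mouse ependymal cultures in which progenitors become multiciliated cells (MCCs). A gene was eligible when the deposited gene annotation gave it the biotype lincRNA, antisense or processed_transcript on chromosomes 1 to 19; the biotype lncRNA was also allowed. Of 32287 genes in all, 8582 were eligible, 5816 of them had at least 1 UMI (unique molecular identifier, 1 per captured RNA molecule), and the 150 with the most UMIs over all cells were taken. They comprise 52 lincRNA, 51 antisense and 47 processed_transcript genes. The total UMI count chose them, so their abundance is given as a description only.

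Ventricular walls of newborn mice (postnatal days 0 to 2) were grown as primary culture, freed of loosely attached cells by shaking, and kept without serum for 2 days, which starts differentiation. One culture each of strain C57BL/6N (library 1, 12028 cells) and C57BL/6J (library 2, 4373 cells) was dissociated, labelled with cell surface protein tags and sequenced with the 10x Genomics 3′ v3 chemistry. No treatment or mutant was used, so each comparison is between cell populations of the same 2 cultures. The deposited population names were used: early, mid and late deuterosomal cells, early MCCs and MCCs (the multiciliated lineage, 6030 cells), cycling progenitors (759 cells), progenitors I and II (the non-cycling progenitors, 6104 cells), and, as 780 cells in all, neuroblasts, precursors of oligodendrocytes (OPCs), mature oligodendrocytes, microglia and fibroblasts, and 2728 unnamed cells.

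As background, a deuterosome is an organelle that builds centrioles in bulk before a cell grows its many cilia, and deuterosomal cells are the transient stage between progenitor and MCC. Long noncoding RNAs are capped, often spliced transcripts without a long reading frame. Some form nuclear bodies, some silence imprinted neighbours, and others are hosts from whose introns small nucleolar RNAs (snoRNAs) or microRNAs (miRNAs) are cut. Many lie head to head with, or across from, a coding gene. For most genes that carry only a serial name no function is established.

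The libraries held 173510950 and 70611931 UMIs, with medians of 12708 and 14409 per cell, and 13 cell barcodes occurred in both. Levels are the UMIs of a gene over the UMIs of all genes in the summed cells of a population and library, as counts per 1000000 UMIs (CPM); paired values below are library 1 and then library 2. The marker lists matched the names only in part. Summed MCC markers were 5413 to 6778 CPM in mid and late deuterosomal cells, early MCCs and MCCs, against 427 to 1038 CPM in non-cycling progenitors. Early deuterosomal cells had 2512 and 2578 CPM of them, and unnamed cells 2607 and 2323 CPM. Astroglial progenitor markers were 14417 to 16500 CPM in non-cycling progenitors. They were still 11095 and 11043.5 CPM in early deuterosomal cells and 9647 and 9970 CPM in MCCs. Some populations carried markers of another. In library 1, 70 of 289 microglia and 13 of 68 OPCs held more than 10 UMIs of deuterosomal and MCC markers, against 2 of 43 microglia and 1 of 34 OPCs in library 2. The same limit was passed by 50.3% and 59.8% of progenitors II, 322 of 2374 and 219 of 1218 progenitors I and 27.9% and 33.5% of cycling progenitors, and by no neuroblast. OPCs (1938 and 4150 CPM), neuroblasts (2182 and 3207 CPM), microglia (695 and 1208 CPM) and fibroblasts (1684 and 83.3 CPM) carried cycling markers, against 20.1 to 33.5 CPM in non-cycling progenitors. Neuroblasts also carried OPC markers, at 699 and 226 CPM, and OPCs carried oligodendrocyte markers, at 747 and 73.3 CPM. The population names presumably rest on these same expression values, so a gene's difference between populations is not independent of the naming.

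Of the 150 lncRNAs, 13 span miRNA genes on their own strand, and those miRNAs are the products for which several of these transcripts are known. The mature sequences below are shown because the results return to their hosts as a group; they are from RefSeq (GRCm38.p6), 5′ to 3′, with the seed (bases 2 to 8, which pair with targets) in capitals. Each miR-9 locus named here lies inside a member: miR-9-3 in Mir9-3hg (chr7:79500026-79534403, plus strand), miR-9-2 in C130071C03Rik (chr13:83721381-83884194, plus strand) and miR-9-1 in Gm3764 (chr3:88206813-88229959, plus strand), and they give the same mature RNA. Mir99ahg on chromosome 16 and Mir100hg on chromosome 9 hold parallel clusters whose miR-99a and miR-100 share a seed and whose miR-125b is identical. Dleu2 on chromosome 14 holds miR-15a and miR-16, which share a seed, and Mir22hg on chromosome 11 holds miR-22.
mmu-miR-9-5p (Mir9-3hg, C130071C03Rik, Gm3764): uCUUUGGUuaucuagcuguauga
mmu-miR-99a-5p (Mir99ahg): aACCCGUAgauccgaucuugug
mmu-miR-100-5p (Mir100hg): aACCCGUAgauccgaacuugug
mmu-miR-125b-5p (Mir99ahg, Mir100hg): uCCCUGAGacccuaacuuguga
mmu-let-7c-5p (Mir99ahg): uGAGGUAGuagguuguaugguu
mmu-miR-15a-5p (Dleu2): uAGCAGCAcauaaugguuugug
mmu-miR-16-5p (Dleu2): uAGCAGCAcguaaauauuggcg
mmu-miR-22-3p (Mir22hg): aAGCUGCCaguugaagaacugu
The level of a host transcript in 3′ counts does not measure the miRNA, which was not captured.

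A second set of 16 members spans snoRNA genes. Several hosts of this kind, Gas5 among them, are known as 5′ terminal oligopyrimidine transcripts, which begin with a C followed by a run of C or T. The first 25 bases from the RefSeq start (GRCm38.p6) are shown for 12 of them, with an opening C and the C or T run behind it in capitals.
Gas5 (second annotated start, chr1:161035166-161035190, plus strand): CTTTCggagctgtgcggcattctga
Snhg8 (chr3:123508312-123508336, minus strand): CTCTTTggctgcgatccgcctacga
1110038B12Rik (chr17:34952444-34952468, minus strand): CTCTTTgtgcacccgcccacacggt
2410006H16Rik (chr11:62602877-62602901, plus strand): CTCTgcggccatcatgggatcgtgc
Snhg1 (chr19:8723487-8723511, plus strand): CTCatttttccttgttcggggtaag
Snhg18 (chr15:32244638-32244662, minus strand): tcctctagccccgcctcttcccgag
Zfas1 (chr2:167062934-167062958, plus strand): gcggccgcaggtctcggctggcccc
Snhg12 (chr4:132308678-132308702, plus strand): tttctcgcttcatccgcggtccctg
Rian (chr12:109603945-109603969, plus strand): tcactgcccctcagggggcaggggg
Snhg3 (chr4:132353662-132353686, minus strand): gacttccgggcgttacttaaggtat
Snhg10 (chr12:105032255-105032279, minus strand): gcggtgattgctacggtaacgcggc
Snhg20 (chr11:117076783-117076807, plus strand): gaagtgcatttgcagagctggttcc
A C followed by at least 4 bases that are C or T opened 3 of the 14 members of this set with a RefSeq start (Snhg8, and 1 of 2 annotated starts each of Gas5 and 1110038B12Rik), and 9 of the 104 members with one, against 3.01% of all 27025 genes in the table. Compared with non-cycling progenitors, the lineage had less of the first 9 RNAs above, whether or not an annotated start opened with C, and more of the last 3, with values given further on. An annotated start is not a measured one, and the match is a description.

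The promoter of A430108G06Rik, which starts 66 bases head to head from Kif3a (a subunit of the kinesin-2 motor that moves cargo into cilia), is shown because both genes were higher in the lineage. It runs from 250 bases before to 50 bases after the start (chr11:53567264-53567563, minus strand, RefSeq GRCm38.p6). The motif GTTGCC, a part of the site of the ciliary RFX factors, was searched on both strands and is in capitals (here as GGCAAC).
A430108G06Rik promoter: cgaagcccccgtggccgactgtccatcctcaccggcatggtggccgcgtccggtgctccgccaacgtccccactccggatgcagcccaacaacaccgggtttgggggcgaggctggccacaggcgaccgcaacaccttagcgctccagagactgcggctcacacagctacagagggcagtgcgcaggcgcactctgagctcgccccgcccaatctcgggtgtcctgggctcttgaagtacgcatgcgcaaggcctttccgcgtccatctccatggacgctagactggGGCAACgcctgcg
GTTGCC occurred in 18 of the 104 member promoters and in 14.1% of all promoters of this length. Among 49 member promoters whose gene was highest in the MCC stages in both libraries, 11 held it. It was absent from the promoter of 3300002A11Rik, a member of the MCC stages. A longer form of the RFX site was also searched. This longer form occurred in 5 of the 104 member promoters and in 2.53% of all promoters. Among the 49 promoters of the MCC stages 3 held it, and the A430108G06Rik promoter did not. The promoter of Lockd (chr6:134928842-134929141, plus strand), which was highest in cycling progenitors, is shown with the E2F-type motif TTCCCGCC in capitals (both strands searched, here as GGCGGGAA).
Lockd promoter: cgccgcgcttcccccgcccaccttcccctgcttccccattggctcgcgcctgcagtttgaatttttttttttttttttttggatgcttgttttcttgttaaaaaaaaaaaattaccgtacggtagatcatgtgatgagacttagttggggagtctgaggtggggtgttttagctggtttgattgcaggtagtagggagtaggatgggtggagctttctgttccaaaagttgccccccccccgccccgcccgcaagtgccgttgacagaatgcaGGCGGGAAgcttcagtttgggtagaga
TTCCCGCC occurred in 6 of the 104 member promoters (Lockd, AI506816, Snhg8, Gm36738, Med9os and 1700008J07Rik) and in 2.52% of all promoters. These letters are a description of the windows and not binding sites.

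The 150 lncRNAs held 1.61% of all UMIs and 78.4% of the UMIs of all eligible genes. Malat1, the RNA of nuclear speckles (chr19:5795690-5802672, minus strand, a single exon), alone held 56.7% of the members' UMIs, and the 10 most abundant members held 68.3%. After Malat1 these were Gas5, Meg3, Kcnq1ot1, Gm14964, Gm17750, Pantr1, Sp3os, 3300002A11Rik and Gm37800. The median member had 7038.5 UMIs. At the limit, Brip1os with 3722 UMIs was the last gene inside and Epb41l4aos with 3719 UMIs the first outside. In the annotation used here (GENCODE M21, which holds 99.8% of the gene IDs of the counts) the median exonic length was 2109.5 bases and 23 members had a single exon.

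The share of UMIs in the members differed by stage. It was 1.04% and 0.984% in mid deuterosomal cells, 1.71% and 1.53% in MCCs, 1.20% and 1.09% in cycling progenitors, and 2.15% and 2.03% in progenitors II. Most of that came from Malat1, which had 4042 and 4064 CPM in mid deuterosomal cells, 4667 and 5304 CPM in late deuterosomal cells, 8202 and 6951 CPM in MCCs, 6492 and 5779.6 CPM in cycling progenitors, and 14598 and 13722 CPM in progenitors II. Both libraries placed every deuterosomal and MCC stage below every non-cycling progenitor population. Across the lineage against non-cycling progenitors Malat1 fell by 1.14 ± 0.11 on the log2 scale (edgeR quasi-likelihood test, adjusted p = 3.08e-07), and mid against early deuterosomal cells it fell by 1.01 ± 0.20 (adjusted p = 0.000665). Against cycling progenitors the difference was 0.01 ± 0.15 (adjusted p = 0.976). As the values are shares of all UMIs, a lower CPM can mean fewer of these RNAs or more of all other RNAs: mid deuterosomal cells had medians of 17984 and 20436 UMIs per cell, against 10184 and 12434 in progenitors II. Here and below, a fold change averages the log2 ratios over the populations of each side, and its error is the standard error of the fit.

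Neat1, which scaffolds the nuclear paraspeckles, was the member that differed most between the libraries in the direction of library 2. It had 55.4 and 148 CPM in early deuterosomal cells, 24.6 and 48.1 CPM in mid deuterosomal cells, 86.3 and 240.2 CPM in MCCs, and 119 and 259 CPM in progenitors II. Within each library the order of these stages was the same. Neat1 fell by 1.02 ± 0.15 in the lineage against non-cycling progenitors (adjusted p = 3.95e-05), was also lower in mid than in early deuterosomal cells (adjusted p = 0.00254) and rose by 1.06 ± 0.18 in the MCC against the deuterosomal stages (adjusted p = 0.000231).

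Each member was assigned to the group of populations in which its CPM was highest. The same group came out in both libraries for 122 members and the same population for 104. The MCC stages were highest for 68 members, the deuterosomal stages for 15, neuroblasts for 14, non-cycling progenitors for 11, oligodendrocytes for 7, cycling progenitors for 4, OPCs for 3 and microglia for none. Peaks were not counted over all genes, so nothing is read from these numbers about lncRNAs as a class. Most of these peaks were shallow. A level at least 2 times the next group in both libraries was reached by 6 members in the MCC stages (3300002A11Rik, Gm16201, 2010001K21Rik, 9230114K14Rik, 2310015A10Rik and Gm15728), by 3 in the deuterosomal stages (Gm11837, Gm37800 and Gm36037) and by 3 in neuroblasts (Pantr1, Dleu2 and C130071C03Rik). The rule sums UMIs over all cells, and 4.76% of cells are neuroblasts, OPCs, oligodendrocytes, microglia or fibroblasts, so an lncRNA of those types alone had little chance of entering.

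**Figure D1:**
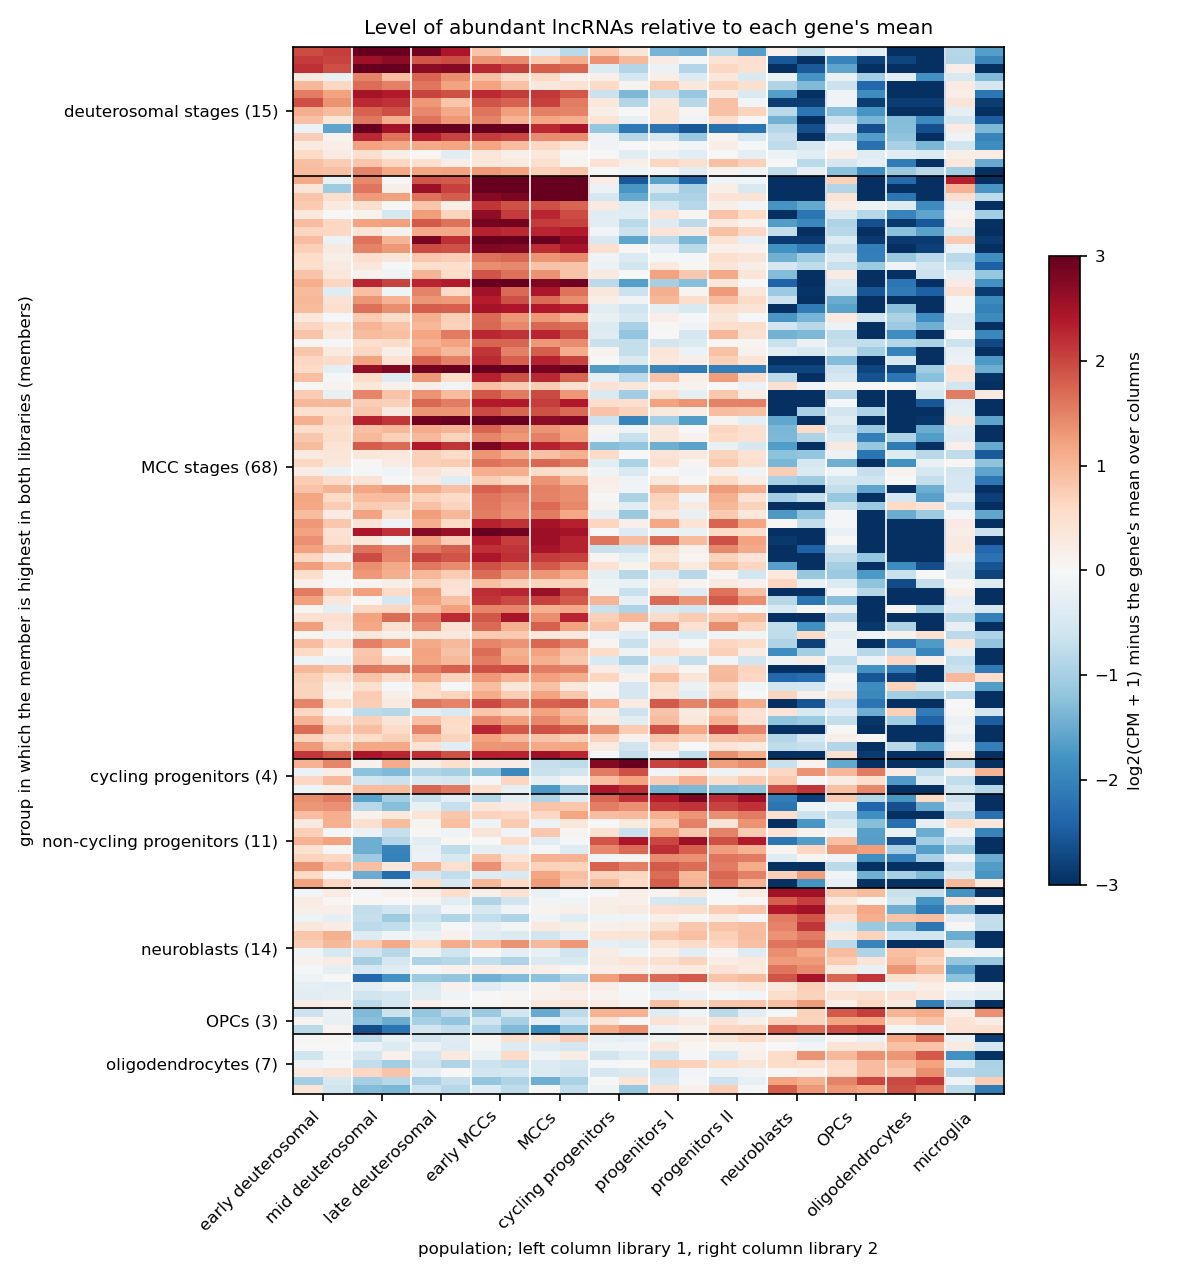
Level of the 122 members with the same highest group in both libraries, as log2(CPM + 1) minus the gene's mean over all columns (colour); rows are members grouped by that group, columns are populations with library 1 left of library 2. The 68 members of the MCC stages form the largest block, and the small populations at the right reach the dark blue end where a member had few or no UMIs.

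In the lineage against non-cycling progenitors 76 members were higher and 54 lower, with 36.0% and 34.9% of all 15877 tested genes called higher and lower. The members' median log2 fold change was 0.20, against 0.01 over all genes. The share of members called lower is near that of all genes. Among antisense genes 32 of 51 were higher and 12 lower, among lincRNA genes 23 of 52 were higher and 23 lower, and among processed_transcript genes 21 of 47 were higher and 19 lower.

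The largest rise was that of Gm12144, a spliced RNA on chromosome 11 (chr11:43229563-43232264, minus strand) whose exons overlap those of Atp10b, a phospholipid flippase, on the other strand. Gm12144 had 56.4 and 35.1 CPM in mid deuterosomal cells, 89.3 and 94.9 CPM in late deuterosomal cells, 82.1 and 79.3 CPM in early MCCs and 28.7 and 33.6 CPM in MCCs, against 0.358 and 0.0560 CPM in progenitors I and 0.293 and 0.378 CPM in progenitors II. It was nearly absent in early deuterosomal cells too, at 4.55 and 1.09 CPM. From the mid deuterosomal stage on all its values lay above all progenitor values, and the fold change was 6.75 ± 0.39 on the log2 scale (adjusted p = 2.17e-10). With each cell thinned to 5000 UMIs, 31.6% (138 of 437) and 28.1% (32 of 114) of late deuterosomal cells had a Gm12144 UMI, against 0.265% (6 of 2268) and 0% (0 of 1211, which allows up to 0.248%) of progenitors I. Microglia had 3.14% (9 of 287) and 2.56% (1 of 39), at median depths of 13668 and 17034 UMIs. These shares include the microglia that carry lineage markers, 70 of 289 in library 1. Without such cells Gm12144 had 0.728 and 0 CPM in microglia. Without thinning the late deuterosomal shares were 61.6% and 59.2%.

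Gm33050 (chr5:96456389-96457743, minus strand, inside Fras1 on the other strand) was also higher from mid deuterosomal cells on, at 41.1 and 45.3 CPM there, against 9.11 and 4.51 CPM in early deuterosomal cells. It averaged 44.4 and 53.5 CPM over the lineage stages, against 0.633 and 0.563 CPM in non-cycling progenitors, with the highest values, 74.3 and 93.1 CPM, in early MCCs. Its log2 fold change was 5.88 ± 0.24 (adjusted p = 7.72e-13).

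Next came 3300002A11Rik, a spliced RNA (chr12:99341154-99361827, plus strand) that lies across from Foxn3, a forkhead repressor, with no shared exon. It reached 582 and 391 CPM in MCCs and 203 and 204 CPM in early MCCs, against 3.29 and 1.46 CPM in progenitors I and 10.7 and 10.9 CPM in progenitors II. Thinned shares of cells were 76.8% (1546 of 2013) and 63.6% (166 of 261) in MCCs, against 1.41% and 0.578% in progenitors I. In microglia the share was 9.76% (28 of 287) in library 1 and 0 of 39 in library 2, which allows up to 7.69%. The log2 fold change over the whole lineage was 3.83 ± 0.37 (adjusted p = 1.21e-06).

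Further members above a log2 fold change of 2.5 were Gm16006 inside Zhx2 (3.19 ± 0.17), A430108G06Rik beside Kif3a (3.11 ± 0.10), Gm11837 across from Necab1 (3.04 ± 0.13), Gm35611 (2.82 ± 0.13), 1700019G24Rik inside Dync1i1, a cytoplasmic dynein chain (2.80 ± 0.13), Gm16201 (2.70 ± 0.22) and 4930412C18Rik (2.55 ± 0.10). The rule for naming them required the same sign in each library alone. A430108G06Rik averaged 49.6 and 41.5 CPM in the lineage, against 5.78 and 4.81 CPM in non-cycling progenitors. Gm16006 averaged 159 and 153 CPM in the lineage, against 18.4 and 13.1 CPM in non-cycling progenitors.

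**Figure D2:**
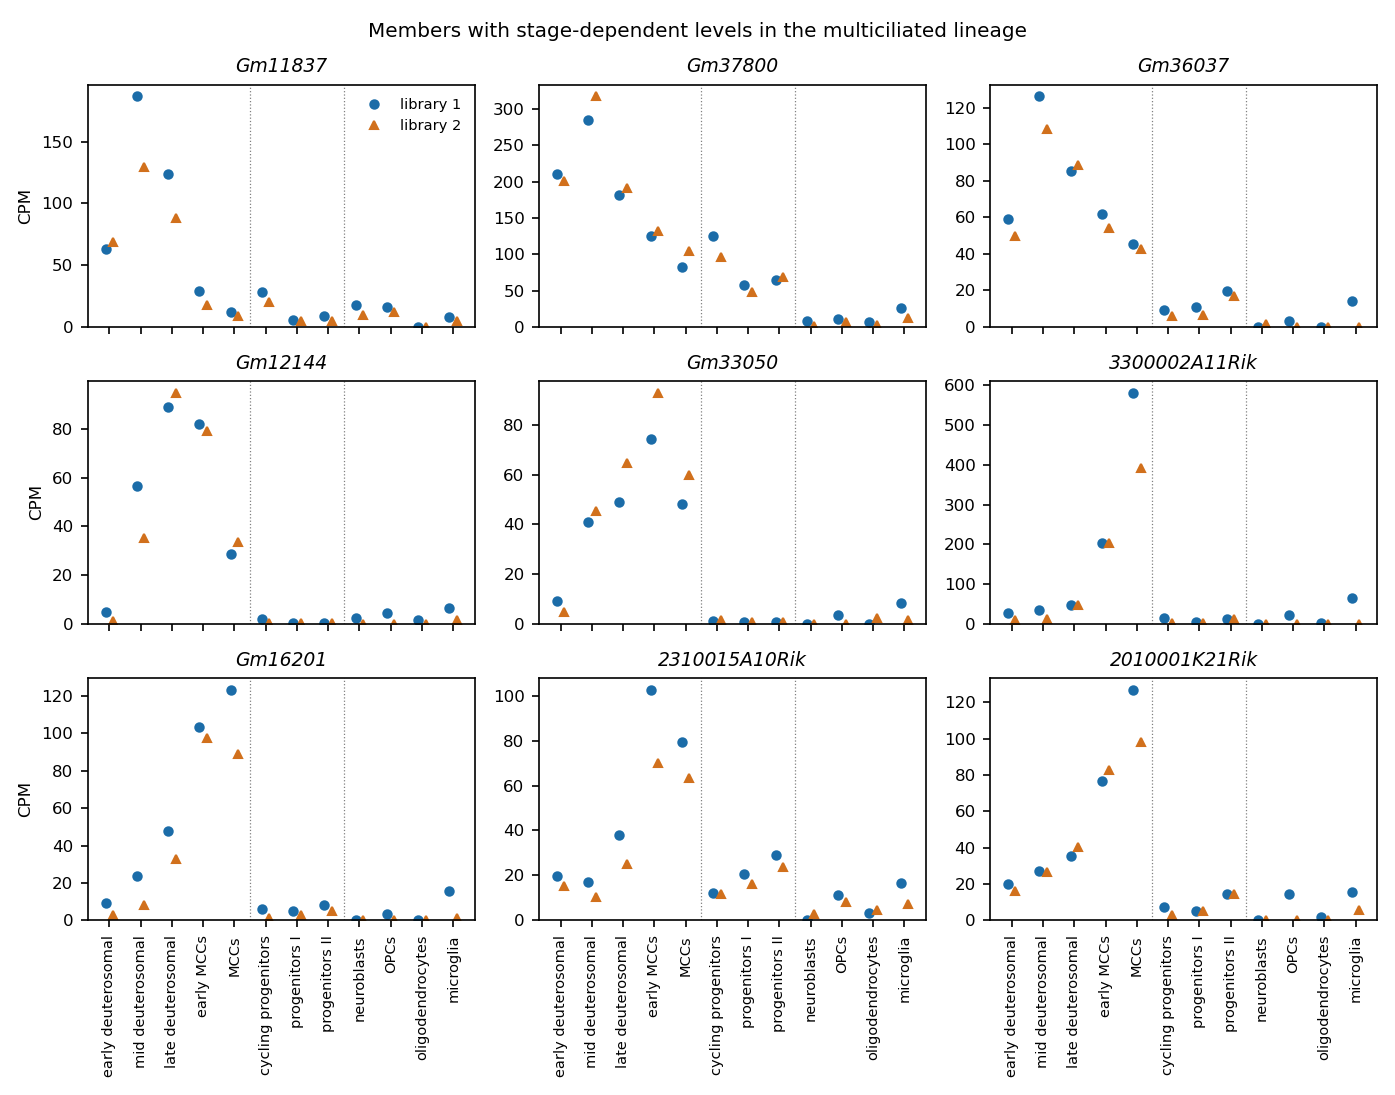
CPM (linear axis from 0) of 9 members in each population, with circles for library 1 and triangles for library 2; dotted lines part the lineage stages (left), the progenitors and the other cell types. Gm11837, Gm37800 and Gm36037 are highest in mid deuterosomal cells, Gm12144 in late deuterosomal cells, Gm33050 and 2310015A10Rik in early MCCs, and 3300002A11Rik and 2010001K21Rik in MCCs.

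The largest fall was that of Meg3, a maternally expressed RNA of the imprinted Dlk1-Dio3 region (chr12:109541001-109571726, plus strand). Meg3 had 284 and 323 CPM in early deuterosomal cells, 34.7 and 52.7 CPM in mid deuterosomal cells and 57.1 and 81.8 CPM in MCCs, against 555 and 767 CPM in progenitors I and 509 and 643 CPM in progenitors II. All lineage values were below all progenitor values, cycling ones included, and the log2 fold change was -2.84 ± 0.25 (adjusted p = 2.47e-07). Rian, which follows Meg3 in the same region (chr12:109603940-109661716, plus strand), averaged 15.0 and 19.3 CPM in the lineage, against 61.1 and 87.6 CPM in non-cycling progenitors (-2.35 ± 0.11, adjusted p = 1.80e-13).

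Gm3764, the miR-9-1 host, averaged 10.4 and 11.7 CPM in the lineage, against 60.4 and 65.9 CPM in non-cycling progenitors (-2.66 ± 0.09, adjusted p = 3.60e-18). AW047730 ends 3332 bases before Gm3764 starts on the same strand and fell by 2.18 ± 0.10, so reads of the pair may not be separable. Snhg18, a snoRNA host, averaged 21.3 and 19.9 CPM in the lineage, against 65.7 and 70.8 CPM in non-cycling progenitors (-1.98 ± 0.10). Gm10561 fell by 2.06 ± 0.10, 1110038B12Rik by 1.88 ± 0.06, Gm42047 by 1.70 ± 0.11, 2410006H16Rik by 1.69 ± 0.08 and Snhg1 by 1.53 ± 0.11. Gm10561 has exons across from exons of Rftn2 and followed that gene, which fell by 2.07 ± 0.09.

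Against cycling progenitors 92 members were higher and 34 lower in the lineage, with 30.6% and 28.6% of all genes called (59.3% either way). The median log2 fold change of the members was 0.69, against 0.03 over all genes. Here the members' share called higher, 61.3%, stands above that of all genes. The members were chosen by UMIs over all cells, which include 6030 lineage cells and 759 cycling progenitors. That choice favours genes high in the lineage, so nothing is read from this excess. The same lineage samples enter both comparisons with progenitors. Gm33050 (5.07 ± 0.38), Gm12144 (4.62 ± 0.45) and Gm16006 (3.63 ± 0.27) led the rises.

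The falls against cycling progenitors named a partly different set. Brip1os, which starts 177 bases head to head from the DNA repair helicase gene Brip1, averaged 8.82 and 9.13 CPM in the lineage, against 49.0 and 63.4 CPM in cycling progenitors (-2.64 ± 0.12, adjusted p = 4.75e-16). Six3os1, which lies across from the forebrain transcription factor gene Six3 and shares exons with it on the other strand, averaged 10.5 and 14.3 CPM in the lineage, against 63.2 and 79.2 CPM in cycling progenitors (-2.64 ± 0.15, adjusted p = 1.40e-11). Gm42047 fell by 2.59 ± 0.15 and AI506816 by 2.02 ± 0.11.

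Lockd lies 3579 bases downstream of Cdkn1b, the p27 inhibitor of cyclin-dependent kinases, on the same strand (chr6:134929092-134956798, plus strand). Lockd had 46.0 and 58.1 CPM in early deuterosomal cells, 96.0 and 97.4 CPM in mid deuterosomal cells, 171 and 149 CPM in late deuterosomal cells, 73.3 and 41.2 CPM in early MCCs and 14.6 and 23.2 CPM in MCCs. Cycling progenitors had 276 and 238 CPM, and non-cycling progenitors averaged 19.3 and 20.1 CPM. In the lineage it was therefore lower than in cycling progenitors (-2.05 ± 0.13, adjusted p = 1.98e-10) and higher than in non-cycling ones (1.61 ± 0.13, adjusted p = 3.01e-09). The cycling marker sum was 1117 and 1383 CPM in mid deuterosomal cells, 919.7 and 1047 CPM in late deuterosomal cells, 30.1 and 31.3 CPM in MCCs and 2973 and 3479 CPM in cycling progenitors. Whether reads past the end of Cdkn1b add to the count was not tested.

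Between mid and early deuterosomal cells 47 members were higher and 43 lower, with 28.2% and 20.8% of all genes called. Gm12144 led the rises (4.07 ± 0.37), followed by Gm33050 (2.72 ± 0.27), 1700001G11Rik (1.72 ± 0.17) and Gm38414 (1.56 ± 0.17). Meg3 (-2.72 ± 0.49), Gm10561 (-2.57 ± 0.28), Gm42047 (-2.45 ± 0.29), Rian (-2.40 ± 0.25) and Snhg18 (-2.36 ± 0.21) led the falls. Leaving out the library term kept 25 members higher and 30 lower.

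The 3 members that peaked at the deuterosomal stages by at least 2 times had distinct levels. Gm11837 has exons across from exons of Necab1, a calcium-binding protein gene (chr4:14929908-14953030, plus strand). It had 63.4 and 68.9 CPM in early, 187 and 130 CPM in mid and 124 and 88.5 CPM in late deuterosomal cells, and 29.3 and 17.8 CPM in early MCCs and 12.2 and 8.56 CPM in MCCs. It rose by 1.34 ± 0.16 in mid against early deuterosomal cells (adjusted p = 6.52e-07) and fell by 2.74 ± 0.13 in the MCC against the deuterosomal stages (adjusted p = 3.25e-13). Gm37800 (chr1:184610280-184629473, minus strand) had 285 and 318 CPM in mid deuterosomal cells, 82.4 and 104 CPM in MCCs, and 47.3 to 68.7 CPM in non-cycling progenitors. Gm36037 had 126 and 108 CPM in mid deuterosomal cells, 45.6 and 42.4 CPM in MCCs, and 6.21 to 19.4 CPM in non-cycling progenitors. Both fell in the MCC against the deuterosomal stages, by 1.09 ± 0.09 and 0.73 ± 0.11.

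In the MCC stages against the deuterosomal stages 93 members were higher and 15 lower, with 28.7% and 26.7% of all genes called. The members' median log2 fold change was 0.47, against 0.03 over all genes. With relative log expression scaling the median of all genes moved by 0.13 in this comparison, and 107 members were higher and 12 lower. The largest rises were those of 3300002A11Rik (3.54 ± 0.29, adjusted p = 5.74e-07) and Gm16201 (2.66 ± 0.19), whose exons overlap those of 6430531B16Rik and Adam8 on the other strand. Gm16201 averaged 113 and 93.3 CPM in the MCC stages, against 27.1 and 14.6 CPM in the deuterosomal stages. 2310015A10Rik rose by 1.95 ± 0.08, 2010001K21Rik by 1.83 ± 0.11, Gm35611 by 1.68 ± 0.11 and Gm14964, the fifth most abundant member, by 1.63 ± 0.20. Besides Gm11837 and Gm37800, Lockd (-1.56 ± 0.14), Six3os1 (-1.03 ± 0.18) and Kcnq1ot1 (-0.84 ± 0.09) led the falls.

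Of 8 imprinted lncRNAs listed, 4 were members, and they did not move together. Meg3 and Rian fell in the lineage as given above. Kcnq1ot1, the paternally expressed antisense RNA that silences neighbours in the Kcnq1 region (chr7:143203458-143296549, minus strand, a single exon that covers exons of Kcnq1), had 389 and 463 CPM in mid deuterosomal cells, 192 and 174 CPM in MCCs, and 168 and 239 CPM in progenitors I. It rose by 0.51 ± 0.13 in mid against early deuterosomal cells (adjusted p = 0.00215) and by 0.20 ± 0.08 in the lineage against non-cycling progenitors (adjusted p = 0.0254). Snhg14, the paternally expressed transcript of the Snrpn-Ube3a region, averaged within 0.14 ± 0.08 of non-cycling progenitors in the lineage (adjusted p = 0.142) and rose by 1.61 ± 0.24 in oligodendrocytes.

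snoRNA hosts make transcripts whose exons are often discarded after their introns have delivered guide RNAs for ribosomal RNA modification. Of 21 listed hosts, 11 were members. In the lineage against non-cycling progenitors 7 of them fell and 3 rose, with 34.9% of all genes called lower and 36.0% higher. Gas5 averaged 273 and 249.6 CPM in the lineage, against 592 and 559 CPM in non-cycling progenitors (-1.19 ± 0.08, adjusted p = 2.72e-12). Snhg8 averaged 42.8 and 35.0 CPM in the lineage, against 83.1 and 72.8 CPM in non-cycling progenitors (-1.10 ± 0.06). Zfas1 fell by 1.51 ± 0.09, Snhg12 by 0.82 ± 0.10 and Snhg6 by 0.64 ± 0.07. For Gas5 early deuterosomal cells, with 355 and 367 CPM, were already below non-cycling progenitors, and mid deuterosomal cells were lower still, with 230.3 and 185 CPM.

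Rising hosts were Snhg10, Snhg3 and Snhg20. Snhg10 averaged 37.4 and 31.1 CPM in the lineage, against 14.3 and 9.32 CPM in non-cycling progenitors (1.44 ± 0.09, adjusted p = 3.60e-13), and Snhg3 and Snhg20 rose by 0.39 ± 0.06 and 0.19 ± 0.07. 1110038B12Rik and 2410006H16Rik, which span 2 and 3 snoRNA genes but stand in no list, fell by 1.88 ± 0.06 and 1.69 ± 0.08; both start within 5 kb downstream of a same-strand gene (Hspa1b and Trpv2). Against cycling progenitors 7 listed hosts were lower and 4 higher in the lineage, with 28.6% and 30.6% of all genes called.

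Of 16 listed miRNA hosts, 6 were members, and in the lineage against non-cycling progenitors 5 of these fell and none rose, with 34.9% of all genes called lower and 36.0% higher. Mir9-3hg averaged 30.8 and 35.6 CPM in the lineage, against 53.2 and 60.9 CPM in non-cycling progenitors (-0.91 ± 0.08, adjusted p = 7.55e-11). C130071C03Rik averaged 27.2 and 30.8 CPM in the lineage, against 50.9 and 52.9 CPM in non-cycling progenitors (-0.91 ± 0.07, adjusted p = 7.80e-12). With Gm3764, which the list did not name, all 3 transcripts that span a miR-9 gene were lower in the lineage. Mir99ahg fell by 0.93 ± 0.09, Mir22hg by 0.60 ± 0.09 and Mir100hg by 0.52 ± 0.12, while Dleu2 was at 0.09 ± 0.08 (adjusted p = 0.284). Members that span a miRNA gene but are not in the list went both ways: besides Snhg10 and Snhg20, 5430402O13Rik, which holds miR-6371, averaged 26.3 and 20.2 CPM in the lineage, against 10.6 and 9.0 CPM in non-cycling progenitors (1.10 ± 0.09, adjusted p = 1.86e-10).

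**Figure D3:**
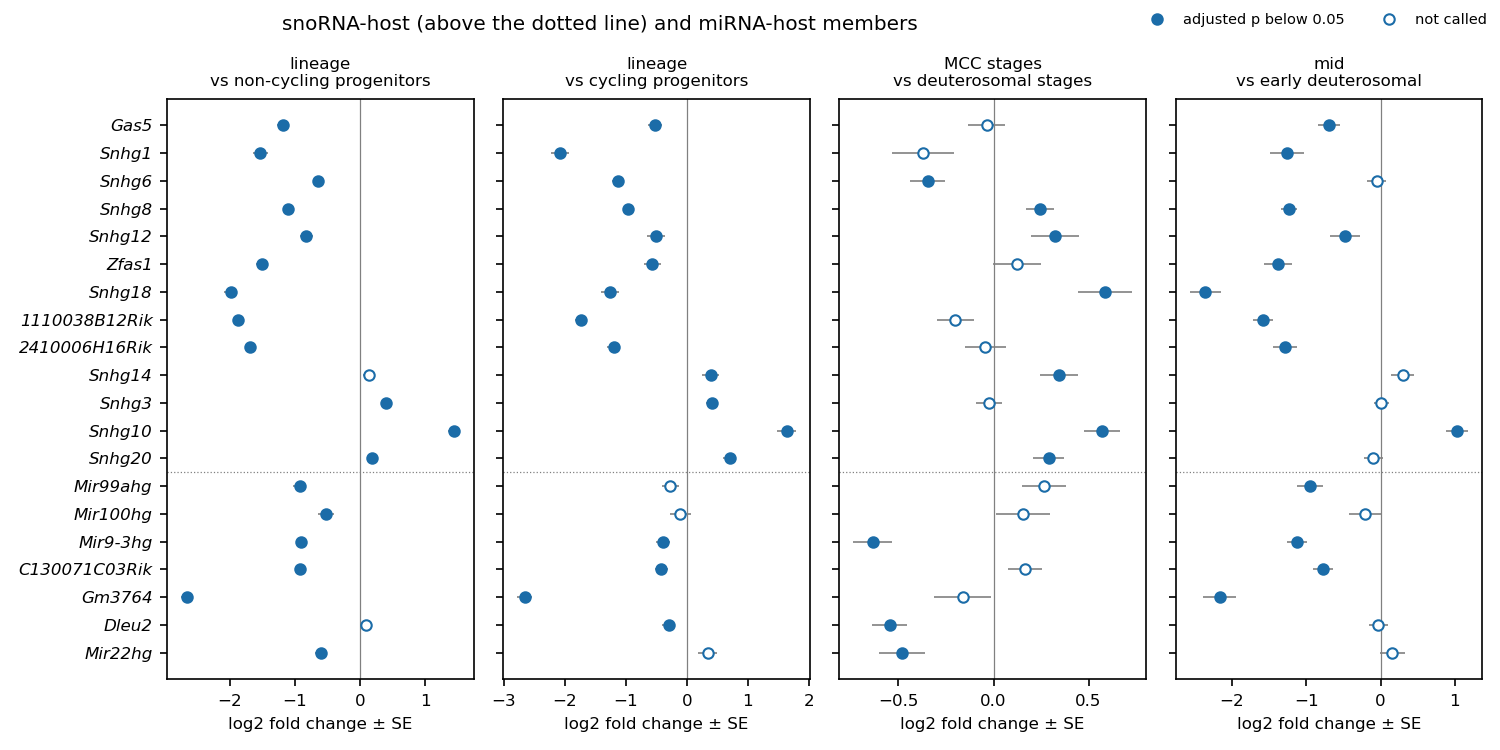
Log2 fold change ± SE of the listed snoRNA hosts with 1110038B12Rik and 2410006H16Rik (above the dotted line) and of the miRNA hosts with Gm3764 (below it), in 4 comparisons; filled points have an adjusted p below 0.05. In the lineage against non-cycling progenitors the hosts from Gas5 to 2410006H16Rik lie left of 0, and Snhg3, Snhg10 and Snhg20 lie right of it.

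Of 12 listed neural lncRNAs, 4 were members. Sox2ot, which spans the progenitor factor gene Sox2, fell by 0.40 ± 0.08 in the lineage against non-cycling progenitors and Six3os1 fell by 1.46 ± 0.12. Pantr1, which starts 926 bases head to head from the neural transcription factor gene Pou3f3 (chr1:42590782-42694842, minus strand), was at -0.06 ± 0.12 (adjusted p = 0.686). Oip5os1, the RNA also called Cyrano, which carries a miR-7 site, was at -0.10 ± 0.05 (adjusted p = 0.104).

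**Figure D4:**
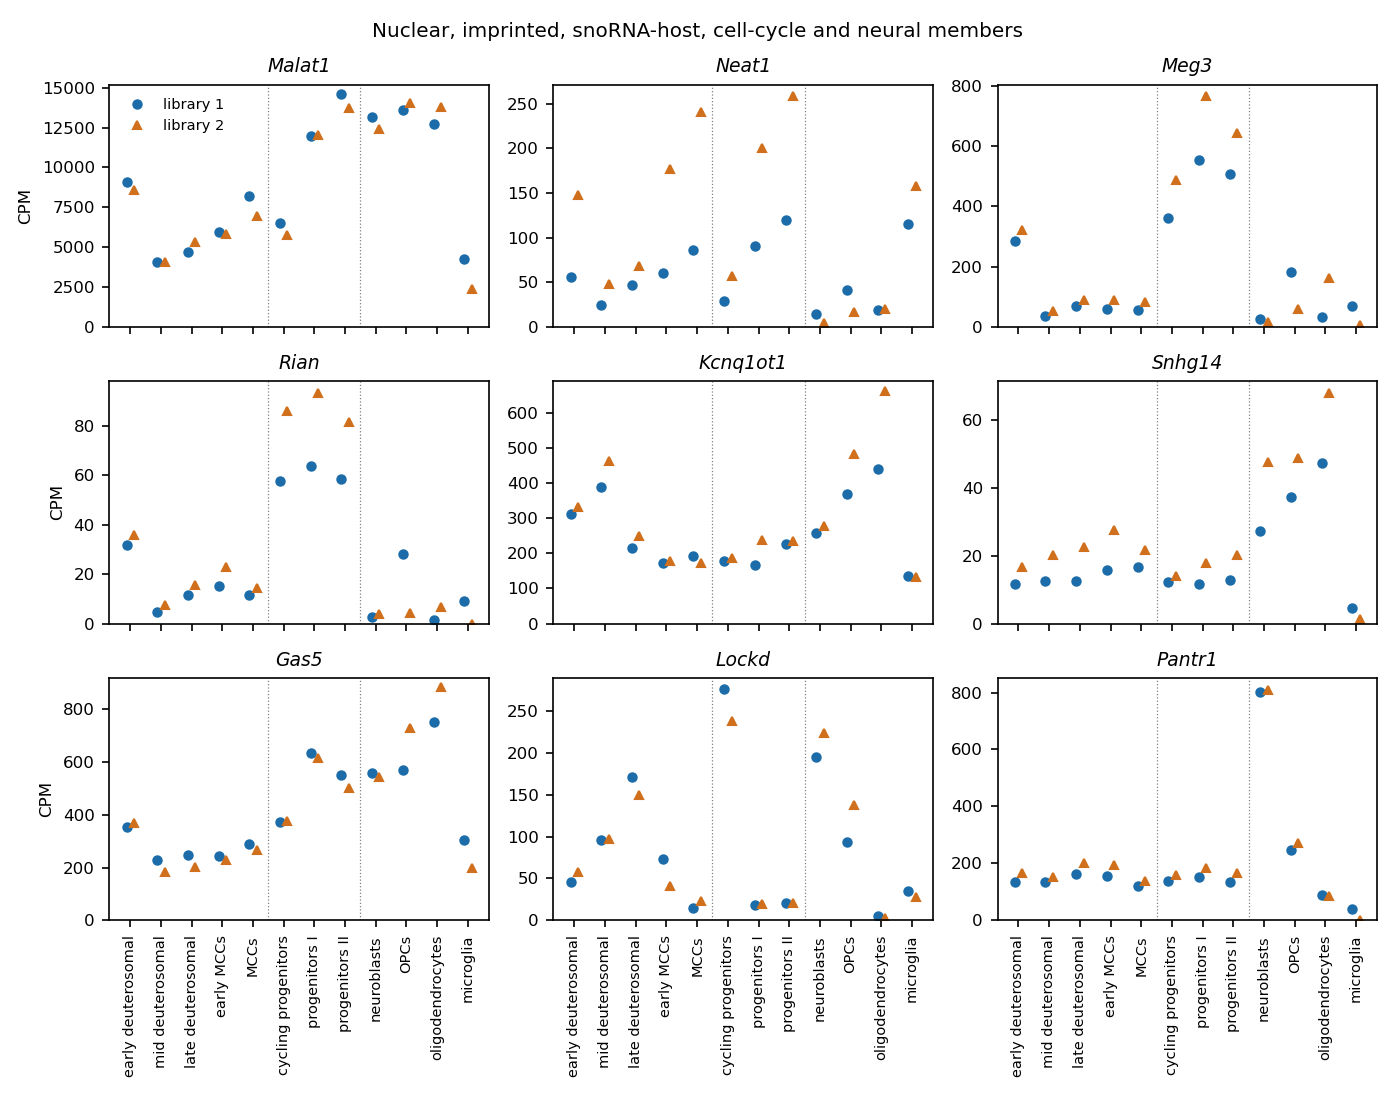
CPM (linear axis from 0) of 9 members of known class in each population, with circles for library 1 and triangles for library 2; dotted lines part the lineage stages (left), the progenitors and the other cell types. Meg3 is low from mid deuterosomal cells on. Among the lineage stages Malat1 is lowest in mid deuterosomal cells and higher again in MCCs. Lockd is high in late deuterosomal cells, cycling progenitors and neuroblasts, and Pantr1 is above 800 CPM in neuroblasts in both libraries.

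Neuroblasts, 81 and 123 cells, were set against non-cycling progenitors: 21 members were higher and 80 lower, with 17.4% and 27.1% of all genes called. As the members had to be abundant over all cells, and these cells are few, nothing is read from the excess of lower calls here or in the other small populations. Lockd rose by 3.15 ± 0.26 and had 196 and 224 CPM in neuroblasts, beside the cycling markers these cells carry. Pantr1 had 803 and 811 CPM in neuroblasts, against 152 and 182 CPM in progenitors I and 134 and 166 CPM in progenitors II (2.05 ± 0.19, adjusted p = 3.91e-07). Dleu2 had 149 and 179.5 CPM in neuroblasts, against 27.8 to 42.4 CPM in non-cycling progenitors (2.00 ± 0.16). C130071C03Rik had 176 and 190.1 CPM in neuroblasts, against 46.3 to 58.7 CPM in non-cycling progenitors (1.53 ± 0.14). Of the 6 miRNA hosts 3 were higher in neuroblasts and Mir22hg was lower. In the sums of both libraries 17 members had no UMI in neuroblasts. The most abundant of those in non-cycling progenitors was Gm20743, which was at least 17.3-fold lower in neuroblasts, taking a floor of 3 UMIs over both libraries.

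OPCs, 68 and 34 cells, had 13 members higher and 79 lower than non-cycling progenitors, with 17.2% and 23.6% of all genes called (40.8% either way). Lockd (2.27 ± 0.30) and AI506816 (2.19 ± 0.20) led, followed by the snoRNA hosts Snhg6 (1.88 ± 0.14) and Snhg1 (1.59 ± 0.22). AI506816 had 93.9 and 112 CPM in OPCs, against 14.3 to 23.6 CPM in non-cycling progenitors. All of these were above non-cycling progenitors in cycling progenitors too. There Lockd had 276 and 238 CPM, AI506816 54.1 and 54.0, Snhg6 44.1 and 59.7 and Snhg1 74.9 and 76.6. OPCs carried cycling markers at 1938 and 4150 CPM, and the part of this in the values was not tested. Without the OPCs and microglia that carry lineage markers 18 members were higher and 91 lower, and all 13 of the first were among the 18.

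Oligodendrocytes, 64 and 38 cells, had 12 members higher and 97 lower, with 14.7% and 26.8% of all genes called. Snhg6 had 179 and 202 CPM in oligodendrocytes, against 28.7 to 43.8 CPM in non-cycling progenitors (2.16 ± 0.14, adjusted p = 4.11e-12). Kcnq1ot1 had 442 and 664 CPM in oligodendrocytes, against 168 to 239 CPM in non-cycling progenitors (1.05 ± 0.12, adjusted p = 1.86e-07). Snhg1 rose by 1.51 ± 0.24, Zfas1 by 1.02 ± 0.22 and Snhg12 by 0.94 ± 0.27. All 6 miRNA hosts were lower in oligodendrocytes. In these cells 24 members had no UMI in either library.

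Microglia, 289 and 43 cells, had 23 members higher and 79 lower, with 28.0% and 24.6% of all genes called (52.6% either way). Without the cells that carry lineage markers 15 members were higher and 115 lower: 12 of the first 23 stayed higher, 6 became lower and 5 lost their call. One that lost its call was 3300002A11Rik, which had 64.3 and 0 CPM in all microglia and 4.73 and 0 CPM without the carriers. Its log2 fold change was 3.45 (adjusted p = 0.000469) with them and -0.18 (adjusted p = 0.925) without. Without the carriers the largest of the 12 that stayed higher were AI506816 (log2 fold change 1.60, adjusted p = 3.10e-09), Lockd (1.24, adjusted p = 0.00293), Gm36738 (1.20, adjusted p = 7.22e-05), Dleu2 (1.10, adjusted p = 1.73e-07) and Snhg6 (1.03, adjusted p = 1.04e-07). For Gm36738, microglia without the carriers had 20.8 and 7.66 CPM, against 11.6 and 6.95 CPM in non-cycling progenitors, a rise mainly in library 1. Microglia carried cycling markers at 695 and 1208 CPM, and the part of this in the Lockd value was not tested. Malat1 was low in microglia, with 4232 and 2395 CPM, against 12003 to 14598 CPM in non-cycling progenitors (-1.68 ± 0.18, adjusted p = 2.58e-06), and 3890.2 and 2409.6 CPM remained without the carriers.

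By position, 30 members start within 1 kb head to head from a coding gene, and 67 overlap a coding gene on the other strand. Of those, 55 members share exonic positions with the coding gene. No source used here says whether reads were counted by strand, so whether reads of such a pair were kept apart is not known here. In the lineage against non-cycling progenitors both genes were called in 21 of the 30 head-to-head pairs, 12 in the same direction and 9 in opposite ones, with 70.8% of all genes called either way in this comparison. Of the 54 overlapping pairs with a tested partner 20 went the same way and 12 opposite ways. Among the 8 of these without shared exons the counts were 2 and 2.

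Pairs that went together included Gm12144 (6.75 ± 0.39) with Atp10b (2.62 ± 0.31), Gm11837 (3.04 ± 0.13) with Necab1 (2.14 ± 0.29), Snhg18 (-1.98 ± 0.10) with Sema5a (-1.93 ± 0.26) and A430108G06Rik (3.11 ± 0.10) with Kif3a (0.87 ± 0.14). In the first of these the lncRNA was the larger signal: in late deuterosomal cells Atp10b had 2.34 and 3.56 CPM where Gm12144 had 89.3 and 94.9 CPM. Kif3a had 269 and 318 CPM in mid deuterosomal cells, against 114 and 132 CPM in progenitors I. Opposite pairs included 3300002A11Rik (3.83 ± 0.37) with Foxn3, which fell by 1.18 ± 0.07 and had 25.8 and 24.4 CPM in MCCs, against 61.3 and 67.7 CPM in progenitors I.

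**Figure D5:**
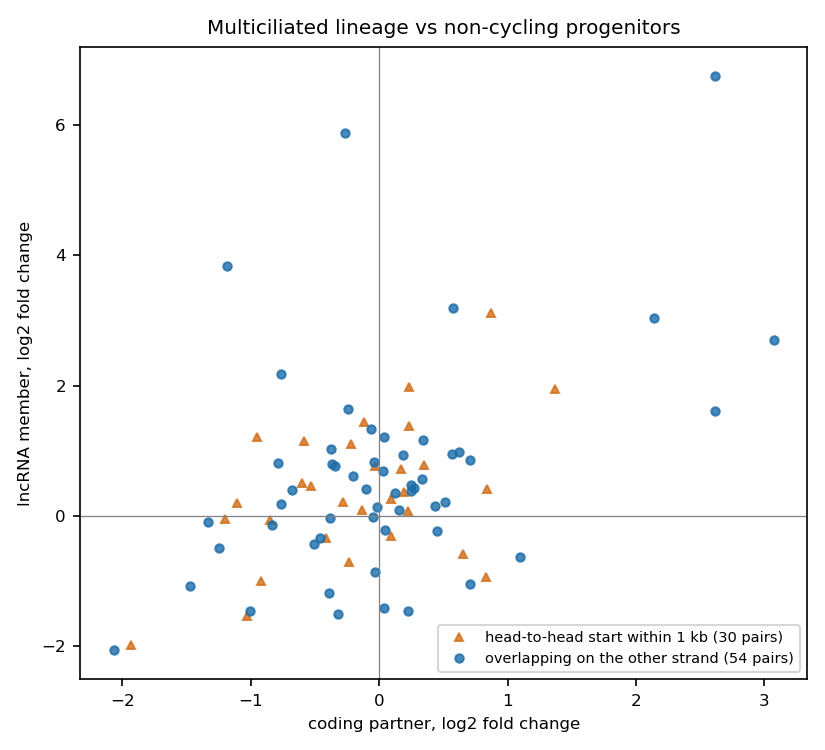
Log2 fold change of each lncRNA member (vertical axis) against that of its coding partner (horizontal axis) in the lineage against non-cycling progenitors; triangles are 30 head-to-head pairs and circles 54 pairs that overlap on opposite strands. Points lie on both sides of 0 on each axis, with Gm12144 at the upper right at 6.75 for the lncRNA and 2.62 for Atp10b.

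The libraries differed for many members. Over the 13 populations that entered the fit, 33 members were higher in library 1 in all of them, against 7.81% of the 7838 genes at least as abundant as the last member, and none was higher in library 2 in all of them, against 3.88% of those genes. The median over populations of the log2 ratio of library 2 to library 1 was below 0 for 115 members. It was -1.60 for Gm10076 and -1.04 for A430018G15Rik at one end and 1.02 for Neat1 and 0.82 for Mir22hg at the other. Strain, culture and library cannot be told apart in this design, and each library entered every fit as a block.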

How the data were processed

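Gene expression of single cells was measured in 2 primary cultures, 1 library each. The authors' deposited table holds UMI counts per gene and cell, whole numbers made with Cell Ranger (versions 3 and 5.0.1, mm10) per the submitters' processing notes; cell and gene tables give the library, the population name and the gene biotype. How populations were named, how doublets were treated and whether counting used strand are not given in the sources used here. Counts were summed per population and library. Fibroblasts were left out because library 1 has under 20 of them, and the other 13 populations, unnamed cells included, gave 26 sums that entered 1 fit with population and library as terms in edgeR 4.0.16 (R 4.3.3): default expression filter, TMM scaling (factors 0.739 to 1.20), quasi-likelihood test, Benjamini-Hochberg adjustment over all 15877 genes tested, threshold 0.05. All 150 members passed the filter.

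The library term pairs sums by source, since each library is 1 culture; deviations of 2 populations of the same library from their population means correlated with a median of 0.183 over 78 pairs (lowest 0.00130). With 2 libraries and the library as a term, p-values measure how far the sums of the 13 populations deviate from the population and library terms. They do not measure the spread between cultures. Named genes followed a rule: the 10 most abundant members; in each comparison up to 10 members each way with the largest change, the same sign in each library and at least 5 CPM on the higher side; up to 4 per population by peak ratio; members of gene lists; and the edge of the limit. Med9os, 1700008J07Rik, 9230114K14Rik and Gm10076 are named outside it, after their values were seen. The members and lists were chosen with earlier results of these data known. For single-library log2 ratios a prior count of 2 was used. Shares of cells used 5000 UMIs per cell, leaving out 607 shallower cells (with exact 95% intervals in the tables); floors are 3 UMIs and cover counting error only. Annotation was GENCODE M21 (99.8% of gene IDs matched) and RefSeq GRCm38.p6, where 104 members had a promoter by symbol. The script was tested on simulated data with known fold changes. Alternatives, with DESeq2 1.42.0 among them, are under the closing section. Python 3 with numpy, scipy and matplotlib did the rest.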

Additional observations from a re-analysis of the deposited data

How the results depend on the processing

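The counts of members called higher and lower in the 8 comparisons stayed within 1.5 times of those reported under relative log expression scaling, no filter on low counts, DESeq2, cells thinned to 5000 UMIs, a fit of only the compared populations, leaving out unnamed cells and leaving out the 22 members that may share reads with a same-strand neighbour. The exceptions came from the fit with no replicate block, that is without the library term: 9 members lower in the MCC against the deuterosomal stages, 25 higher in mid against early deuterosomal cells and 14 higher in microglia. Leaving out OPCs and microglia that carry lineage markers, an alternative chosen after seeing the data, gave 15 higher in microglia. The cause was not tested for the block. Scaling by relative log expression moved the median log2 fold change of all genes by 0.13 in the MCC against the deuterosomal stages, 0.15 in neuroblasts, 0.11 in OPCs and 0.20 in oligodendrocytes. Of 160 named changes 5 lost their call under some alternative and none changed sign. A single library gives a log2 ratio and no test. Each named change had the same sign in both because the rule for naming required it. With the mean of per-cell CPM in place of summed counts, the highest population was that of the summed counts for 134 members in library 1 and 133 in library 2, and both libraries named the same population for 109 members, against 104 by summed counts. Depth limits the small populations: 3 UMIs over both libraries are 2.58 CPM in neuroblasts, 2.18 in OPCs and 2.78 in oligodendrocytes.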
